A study of Mus musculus with 9 samples.

Results

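The genes described here are the core set that moves iron through a macrophage: Tfrc, Slc11a2, Slc11a1 and Hmox1 bring iron in or set it free, Fth1, Ftl1 and Ncoa4 store it and reclaim it, Slc40a1 sends it out, Ireb2 senses it, and Bdh2 has been tied to a mammalian siderophore. The 10 symbols were fixed as a list, and each was annotated to 1 probe set of the array, so all 10 were measured, out of 19505 genes with a probe set. All 10 lay above the limit for dim probe sets (a mean of 5.66 on the log2 scale, the median of all probe-set means) and so were among the 10042 genes tested. Bdh2, at a mean of 5.71, lay just above that limit.

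Levels of mRNA were measured on 9 arrays in bone-marrow-derived macrophages of wildtype C57BL/6 mice. The marrow cells grew for 7 days with macrophage colony-stimulating factor (M-CSF), given as 10 ng/ml in one label and as 20 ng/ml in another, and 10% fetal calf serum. All groups, the controls included, then received 20 ng/ml interleukin 4 (IL-4), which drives macrophages to the state often called M2, for 24 h. One group had LCN2 (lipocalin 2, a secreted protein that binds iron-carrying siderophores) from day 0 at 150 ng/ml, one had LCN2 from day 7 at a dose that the labels do not state, and the control group had vehicle. Each group has 3 arrays, numbered 1 to 3 in their titles. The labels do not say what a number stands for, nor whether a group's arrays hold separate animals or cultures. The p-values therefore cover only the variation among these 9 samples, which may be technical.

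Arrays numbered 1 stood apart in every group. The first principal component held 62.5% of the variance, and which arrays it separates was not recorded. Between groups, the deviations of arrays numbered 1 from their group means correlated at 0.74 to 0.82. Macrophage markers were above the dim limit for 12 of 13 genes with a probe set, among them Adgre1 at 11.8 and Csf1r at 12.0. Only Vsig4, a marker of tissue-resident macrophages, was dim at 4.24. Erythroid markers were above the limit for 2 of 9 genes and lymphoid markers for 0 of 8. Neutrophil granule genes were above it for 9 of 12, with Ngp at 10.0, and monocyte markers for 8 of 11. Markers of megakaryocytes, mast cells and basophils were above it for 5 of 9, with Pf4 at 10.5. Dendritic markers were above it for 4 of 10 and stromal markers for 3 of 8. Array medians lay between 5.60 and 5.69.

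Iron reaches cells bound to transferrin, which the transferrin receptor carries into endosomes, and macrophages also gain it from the heme of engulfed red cells. Ferritin, a shell of heavy and light chains, stores it, and ferroportin is the exporter. When iron is scarce, iron regulatory proteins bind hairpins in the mRNAs (iron-responsive elements), which steadies the transferrin receptor mRNA and holds back the translation of ferritin and ferroportin. Ferritin protein is therefore set largely after transcription, which an array of mRNA levels does not see. IL-4-stimulated macrophages are known for high export and low storage of iron.

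Of the 10 genes 0 passed the threshold in any comparison of groups (0% of all genes tested did), whereas 7 of 10 passed between title numbers (33.2% of all genes did). All 10, called or not, had the same sign in every group, and the share of all genes that did was not counted. The importers Tfrc, Slc11a2 and Slc11a1 and the ferritin receptor Ncoa4 were higher on the arrays numbered 1, and the exporter Slc40a1, the sensor Ireb2 and the heme-degrading enzyme Hmox1 were lower. The 2 ferritin chains had almost one level on all 9 arrays. Fth1 lay at the top of the measured range and Ftl1 close below it. Whether differences are compressed there was not tested. In bulk RNA, fewer cells of a type and less RNA per cell cannot be told apart. The plot of the 10 genes by array shows these patterns.

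**Figure D1:**
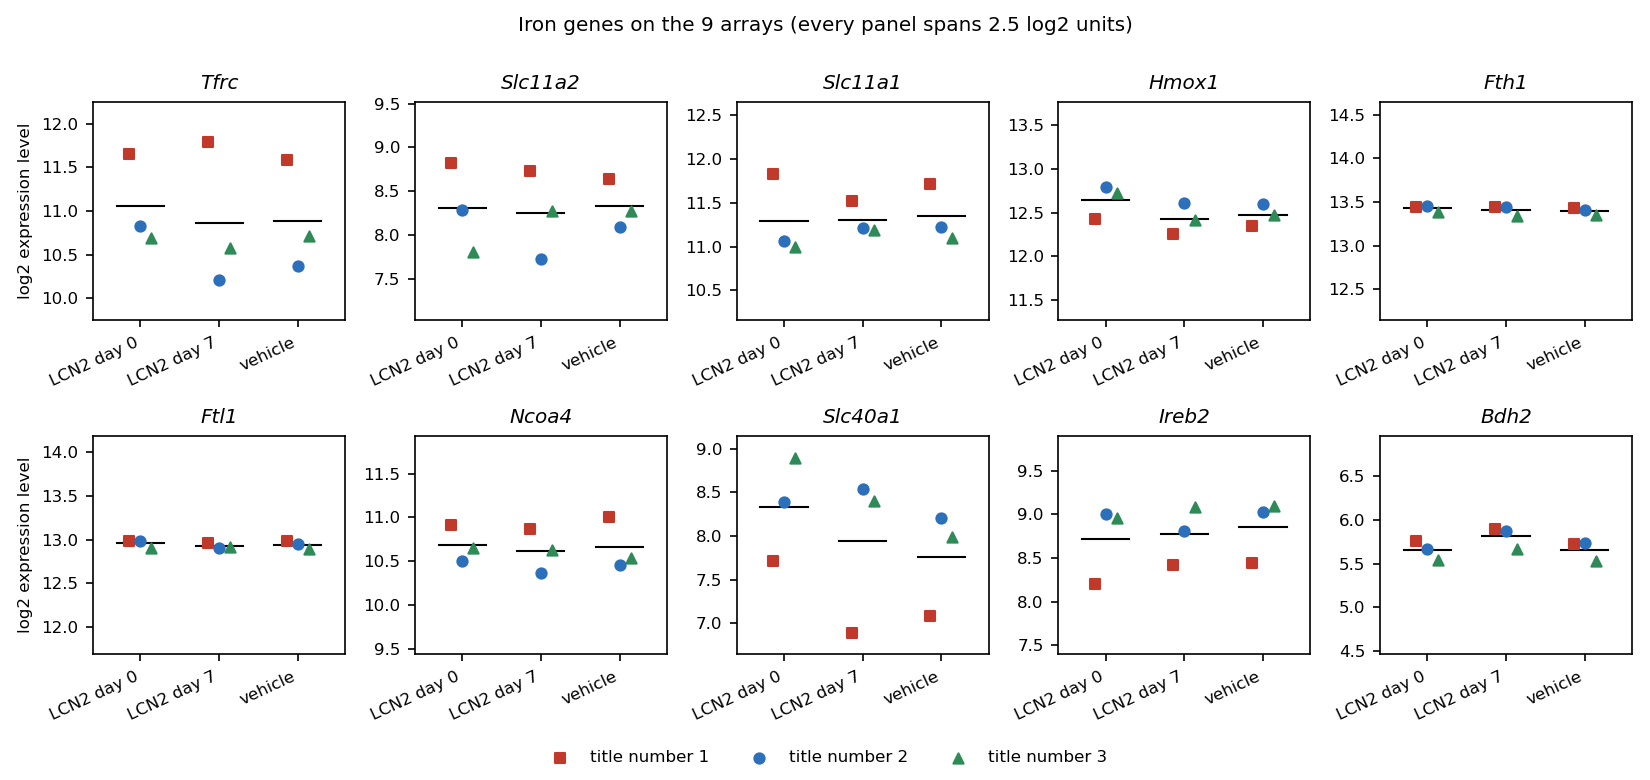
Log2 expression level (vertical axis) of the 10 iron genes on the 9 arrays, by group along the horizontal axis; each point is 1 array, marked by its title number, and lines are group means. Arrays numbered 1 hold the highest Tfrc level of each group (11.58 to 11.79) and the lowest Slc40a1 level (6.90 to 7.72). Fth1 stays between 13.34 and 13.45, at the top of the measured range.

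Tfrc encodes the transferrin receptor, the main door for transferrin-bound iron. Its log2 levels on arrays 1, 2 and 3 were 11.65, 10.83 and 10.69 with LCN2 from day 0, 11.79, 10.21 and 10.58 with LCN2 from day 7, and 11.58, 10.37 and 10.71 with vehicle. The array numbered 1 was the highest of each group, and the groups overlapped. Slc11a2, the transporter (DMT1) that passes iron from the endosome to the cytosol, had 8.83, 8.28 and 7.80 with LCN2 from day 0, 8.74, 7.72 and 8.28 with LCN2 from day 7, and 8.64, 8.09 and 8.27 with vehicle. Here too number 1 was the highest in each group, while the order of numbers 2 and 3 changed between groups. Slc11a1 (NRAMP1) pumps iron and manganese out of phagosomes, and its levels were 11.82, 11.07 and 10.99 with LCN2 from day 0, 11.52, 11.21 and 11.19 with LCN2 from day 7, and 11.72, 11.22 and 11.10 with vehicle. Number 1 again led each group.

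A promoter window of the reference genome was given for 7 of the 10 genes, with 11 windows in all because some genes have several starts. Each spans 250 bases before to 50 after a RefSeq start (build GRCm38.p6). Slc40a1, Hmox1 and Slc11a2 had none. The 2 windows below are shown because Tfrc and Ncoa4 were both higher on arrays numbered 1 and their windows hold matches. They lie on the plus strand at chr16:32608872-32609171 for Tfrc and chr14:32165539-32165838 for Ncoa4, 5′ to 3′. Capitals mark ACGTG, the core of the hypoxia response element, and TGACNNNGC, the core of the antioxidant response element.
Tfrc: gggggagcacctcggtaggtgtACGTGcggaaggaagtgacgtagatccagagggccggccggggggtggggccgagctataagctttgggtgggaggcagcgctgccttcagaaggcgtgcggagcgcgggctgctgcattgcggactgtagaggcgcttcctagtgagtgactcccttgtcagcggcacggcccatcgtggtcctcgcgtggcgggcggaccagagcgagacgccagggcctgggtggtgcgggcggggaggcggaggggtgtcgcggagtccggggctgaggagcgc
Ncoa4: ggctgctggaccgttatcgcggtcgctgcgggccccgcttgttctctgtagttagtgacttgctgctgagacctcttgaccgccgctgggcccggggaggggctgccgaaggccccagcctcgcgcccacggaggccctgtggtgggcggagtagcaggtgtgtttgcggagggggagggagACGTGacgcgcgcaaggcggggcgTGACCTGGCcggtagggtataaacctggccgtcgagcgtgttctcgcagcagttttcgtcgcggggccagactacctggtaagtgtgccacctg
ACGTG begins at position -228 of the Tfrc window and at -68 of the Ncoa4 window, counted from the start, and the antioxidant core begins at -44 in Ncoa4 without overlapping it. Searched on both strands, ACGTG was in 5 of the 11 windows, against 19.6% of all 32851 windows. Those 5 windows belong to Tfrc, Ncoa4 and Bdh2 alone, and the matches in the 2 overlapping Tfrc windows are the same site. ACGTG was added after the windows were seen, so setting its share beside that of all windows is no test. TGACNNNGC was in 1 of 11, against 12.4% of all. The pattern of iron-responsive elements (the loop CAGTG, with a C that stands 5 bases before it), searched in the transcribed strand over the 50 bases after the start, was in 0 of 11 and in 1.55% of all. The rest of each mRNA was not searched, and Slc40a1 and Slc11a2 had no window. The 0 of 11 therefore cannot show that the mRNAs of these genes lack such elements. All of these matches are matches of letters, not shown sites. Slc11a1, also higher on arrays numbered 1, held no match, while Bdh2, which was not called, held ACGTG. Whether matches go with levels was not tested.

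Hmox1 encodes heme oxygenase, which opens heme and frees its iron. Its log2 levels on arrays 1, 2 and 3 were 12.43, 12.79 and 12.73 with LCN2 from day 0, 12.25, 12.61 and 12.41 with LCN2 from day 7, and 12.35, 12.60 and 12.48 with vehicle. Number 1 was the lowest of each group. Every array of LCN2 from day 0 lay above the array of the same number in both other groups. How many of all genes did so was not counted.

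Fth1, the heavy chain of ferritin, which oxidises iron for storage, had 13.44, 13.45 and 13.38 with LCN2 from day 0, 13.45, 13.45 and 13.34 with LCN2 from day 7, and 13.44, 13.41 and 13.35 with vehicle. Over the 9 arrays it spanned 0.11 log2 units. Fth1 held the highest value of the whole array on 7 of 9 arrays and lay within 0.147 of it on the others, so it sat at the top of the measured range, and whether differences are compressed there was not tested. Ftl1, the light chain, had 12.98, 12.99 and 12.91 with LCN2 from day 0, 12.96, 12.90 and 12.91 with LCN2 from day 7, and 12.98, 12.95 and 12.89 with vehicle, a span of 0.0982. Ftl1 lay 0.45 to 0.58 below the highest value of each array, and compression was not tested for it either. Both ferritin genes have near-identical pseudogene copies, and whether the probes also read those was not tested. Ncoa4 encodes the receptor that delivers ferritin to lysosomes, where its iron is released. Its levels were 10.92, 10.51 and 10.65 with LCN2 from day 0, 10.87, 10.37 and 10.63 with LCN2 from day 7, and 11.002, 10.46 and 10.53 with vehicle, with number 1 the highest and number 2 the lowest in each group.

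Slc40a1 encodes ferroportin, the iron exporter, and it varied most of the 10 genes, over 2.00 log2 units. It had 7.72, 8.40 and 8.90 with LCN2 from day 0, 6.90, 8.54 and 8.40 with LCN2 from day 7, and 7.09, 8.21 and 7.98 with vehicle. Number 1 was the lowest of each group, and the array numbered 1 of LCN2 from day 0 was higher than the other arrays numbered 1. Ireb2 encodes an iron regulatory protein, and its levels were 8.21, 8.999 and 8.96 with LCN2 from day 0, 8.42, 8.81 and 9.09 with LCN2 from day 7, and 8.45, 9.03 and 9.09 with vehicle. Number 1 was the lowest of each group here as well. Bdh2, a dehydrogenase described as making a mammalian siderophore that LCN2 can bind, had 5.76, 5.66 and 5.54 with LCN2 from day 0, 5.90, 5.87 and 5.67 with LCN2 from day 7, and 5.72, 5.73 and 5.52 with vehicle. Its 9 values spanned 0.38.

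LCN2 given from day 0 was first set against vehicle, to ask what its presence throughout differentiation changed. Of the 10 genes 0 passed (limma, Benjamini-Hochberg adjusted p under 0.05 over all genes tested), and of all 10042 genes 0 passed (0%, with 142 at an unadjusted p under 0.05). Slc40a1 averaged 8.34 ± 0.59 with LCN2 from day 0 and 7.76 ± 0.59 with vehicle (SD, n = 3 each), a difference of 0.58 ± 0.48 (SE) and a fold of 1.49 with a 95% interval of 0.703 to 3.16 (limma adjusted p = 0.999). Within title numbers 1, 2 and 3 the difference was 0.62, 0.19 and 0.91, so all 3 pairs were higher with LCN2. A pair here is only 2 arrays of the same number, and the labels do not say that they belong together. The share of all genes with the same sign in all 3 pairs was not counted in any comparison of groups. Leaving out vehicle replicate 1 gave 0.24, and leaving out replicate 3 or 1 of LCN2 from day 0 gave 0.29 or 0.89. The fit above has 1 mean per group, so its SEs and intervals also hold the variation between title numbers. With the title number as a block the SE fell to 0.18 and the 95% interval of the difference was 0.16 to 0.99 (limma unadjusted p = 0.0125, limma adjusted p = 0.960). In that fit 0 genes passed and 4.95% of all genes had an unadjusted p under 0.05, and Slc40a1 was the 1 gene of the 10 among them.

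Hmox1 averaged 12.65 ± 0.19 with LCN2 from day 0 and 12.47 ± 0.12 with vehicle (SD, n = 3 each), a difference of 0.17 ± 0.14 (SE, limma adjusted p = 0.999), with 0.083, 0.19 and 0.25 within the numbers. Leaving out vehicle replicate 1 gave 0.11 for Hmox1, and leaving out replicate 2 or 1 of LCN2 from day 0 gave 0.10 or 0.28. Tfrc differed by 0.17 ± 0.45 (SE 0.14 with the block) and within numbers by 0.070, 0.46 and -0.021, so its sign was not shared. Ireb2 differed by -0.14 ± 0.27 and was lower in all 3 pairs, while Fth1 and Ftl1 were higher in all 3. The ferritin genes had a fold of 1.02 (95% interval 0.878 to 1.18) for Fth1 and 1.01 (0.876 to 1.17) for Ftl1. Since Fth1 sat at the top of the measured range, its interval does not bound a change in the amount of its mRNA. Whether the same holds for Ftl1, close below that top, was not tested. The other differences were -0.050 for Slc11a1, -0.028 for Slc11a2, 0.026 for Ncoa4 and -0.005 for Bdh2. The 10 genes had a median difference of 0.023 with 6 above 0, beside a median of -0.015 over all genes tested. In 0 of the 10 genes did the groups lie apart on all arrays, against 5.49% of all genes.

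LCN2 given from day 7 was then set against vehicle, to ask what it changed in cells that were macrophages already. The vehicle arrays are the same as above. Again 0 of the 10 and 0 of all genes passed (0%, with 70 at an unadjusted p under 0.05). Slc40a1 averaged 7.94 ± 0.91 with LCN2 from day 7 and 7.76 ± 0.59 with vehicle (SD, n = 3 each), a difference of 0.18 ± 0.48 (SE), which was -0.19, 0.33 and 0.41 within numbers 1, 2 and 3. Bdh2 averaged 5.81 ± 0.13 with LCN2 from day 7 and 5.66 ± 0.12 with vehicle, a difference of 0.15 ± 0.12, and it was higher in all 3 pairs (0.18, 0.14 and 0.14). Its limma adjusted p was 1.00, and 0.999 with the title number as a block. Ireb2 was lower in all 3 pairs, by -0.029, -0.22 and -0.003. The other 7 genes differed by -0.086 (Slc11a2) to 0.012 (Fth1). The median of the 10 was -0.032 with 3 above 0, beside 0.003 over all genes. With the block 0 of the 10 had an unadjusted p under 0.05, against 2.58% of all genes, and 0 of the 10 lay apart between groups, against 3.17%.

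Setting the LCN2 schedules against each other tests whether their effects differed. This sets 150 ng/ml from day 0 against an unstated dose from day 7, so time and dose cannot be told apart. It called 0 of the 10 genes and 0 of all genes (0%, with 177 at an unadjusted p under 0.05). Hmox1 averaged 12.65 ± 0.19 with LCN2 from day 0 and 12.42 ± 0.18 with LCN2 from day 7 (SD, n = 3 each), a difference of 0.22 ± 0.14 (SE) that was 0.18, 0.18 and 0.31 within the numbers. Without replicate 1 of LCN2 from day 0 it was 0.33, and without replicate 1 of LCN2 from day 7 it was 0.14. With the block its unadjusted p was 0.0319 and its limma adjusted p 0.898, and it was the 1 gene of the 10 at an unadjusted p under 0.05, against 5.37% of all genes. Slc40a1 differed by 0.39 ± 0.48, with 0.82, -0.14 and 0.50 within the numbers. Bdh2 was lower with LCN2 from day 0 in all 3 pairs, by -0.16 ± 0.12, and Ncoa4 was higher in all 3, by 0.069 ± 0.19. In 0 of the 10 genes did the groups lie apart on all arrays, against 5% of all genes.

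**Figure D2:**
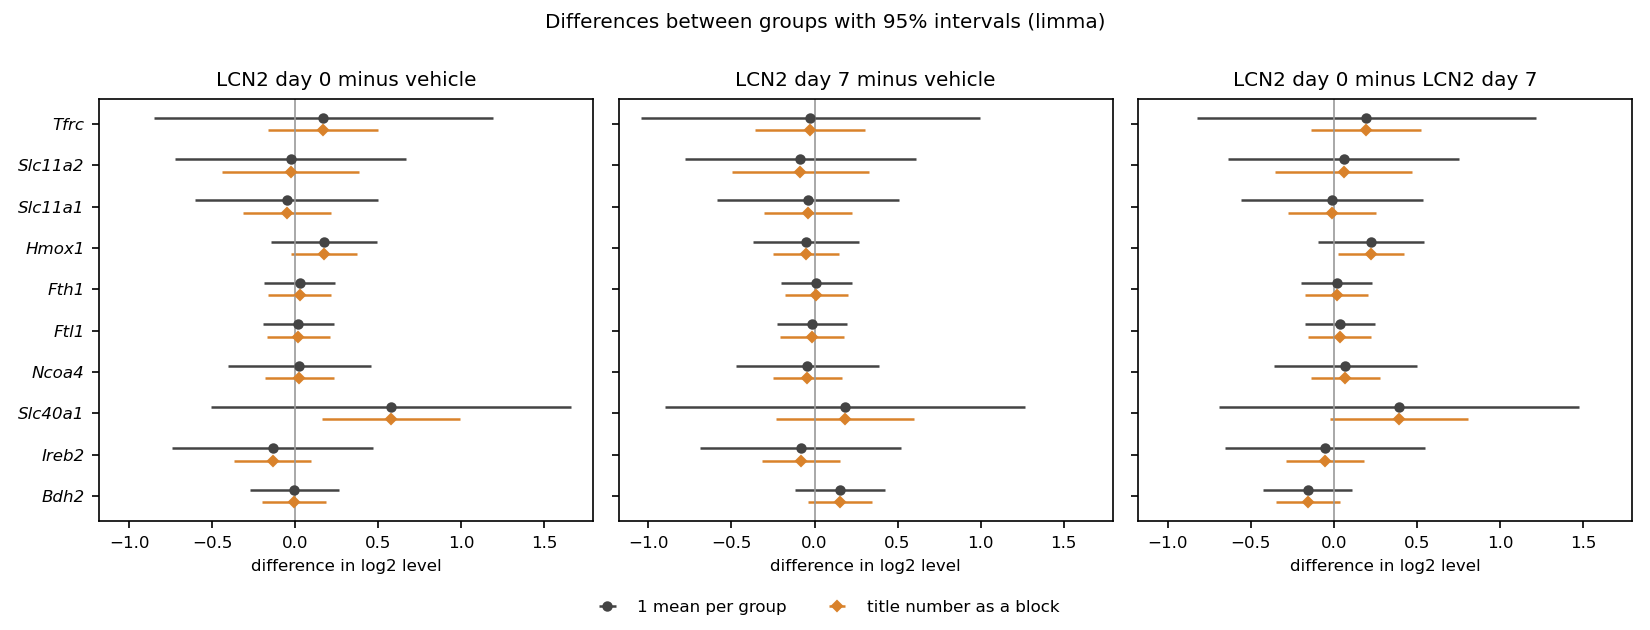
Difference in log2 level (horizontal axis) for each of the 10 genes (vertical axis) in the 3 comparisons of groups; points are limma estimates and bars 95% intervals, with 1 mean per group (circles) or with the title number as a block (diamonds). All circles' bars cross 0, and with the block those of Slc40a1 in LCN2 day 0 minus vehicle and of Hmox1 in LCN2 day 0 minus LCN2 day 7 do not, at adjusted p of 0.960 and 0.898.

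By group, mean levels ran from high to low in the order LCN2 day 0, LCN2 day 7, vehicle for Slc40a1 and Fth1, and from low to high in that order for Slc11a1 and Ireb2. For none of the 10 did neighbours in the order differ past the threshold. The share of all genes whose means ran in either order was not counted. For Fth1 the means were 13.43, 13.41 and 13.40, where the SE of a difference was 0.095.

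Arrays numbered 1 were set against the mean of numbers 2 and 3 in a fit with the group as a term, a contrast picked because earlier results had shown them apart. It called 7 of the 10 genes, 4 higher and 3 lower on the arrays numbered 1, and 3333 of all genes (33.2%), with 11% of all genes higher and 22.1% lower. Tfrc averaged 11.67 ± 0.11 on the arrays numbered 1, against 10.47 ± 0.32 on number 2 and 10.66 ± 0.07 on number 3 (SD, n = 3 each), a difference of 1.11 ± 0.12 (SE, limma adjusted p = 0.000609) and a fold of 2.16 with a 95% interval of 1.77 to 2.63. Slc40a1 averaged 7.23 ± 0.43 on number 1, against 8.38 ± 0.17 and 8.43 ± 0.46 on numbers 2 and 3, a difference of -1.17 ± 0.16 (limma adjusted p = 0.00127) and a fold of 0.445 (0.347 to 0.571). These 2 genes, the door and the exit, thus had the largest differences of the 10, in opposite directions.

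A shared sign does not set the 7 called genes apart, since they were called on these same arrays. Each of the 10 differences, called or not, had the same sign in all 3 groups. For Tfrc it was 0.89 with LCN2 from day 0, 1.40 with LCN2 from day 7 and 1.04 with vehicle, and for Slc40a1 it was -0.93, -1.57 and -1.005 in the same groups. Slc11a2 differed by 0.66 ± 0.16 (limma adjusted p = 0.0135), Slc11a1 by 0.56 ± 0.10 (limma adjusted p = 0.00419) and Ncoa4 by 0.41 ± 0.08 (limma adjusted p = 0.00584), while Ireb2 differed by -0.64 ± 0.09 (limma adjusted p = 0.00145). Hmox1 differed by -0.26 ± 0.08 (limma adjusted p = 0.0316). The ferritin chains did not pass, with 0.044 ± 0.071 for Fth1 and 0.051 ± 0.072 for Ftl1, and neither did Bdh2 at 0.13 ± 0.07. For 6 genes the arrays numbered 1 lay apart from all others, against 35.4% of all genes.

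Over 17 alternatives the calls of Tfrc, Slc40a1, Ireb2 and Slc11a1 held. That of Hmox1 was lost in 9, with no filter on dim probe sets, with no group term, and without any 1 of vehicle replicates 1 to 3, LCN2 day 7 replicates 1 or 2 and LCN2 day 0 replicates 1 or 2 (limma adjusted p up to 0.142). Slc11a2 lost its call without LCN2 day 7 replicate 1 (0.0646) and again without LCN2 day 0 replicate 1 (0.0800), while Ncoa4 lost it without vehicle replicate 1 (0.0504). The count over all genes was 1777 without vehicle replicate 1 and 1923 without LCN2 day 0 replicate 1. Between numbers 2 and 3, limma called 0 of the 10 and 0 of all genes (0%, with 310 at an unadjusted p under 0.05). There 2 of the 10 lay apart on all arrays, Fth1 at 13.44 on number 2 and 13.36 on number 3 and Ncoa4 at 10.44 and 10.60, against 8.54% of all genes.

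**Figure D3:**
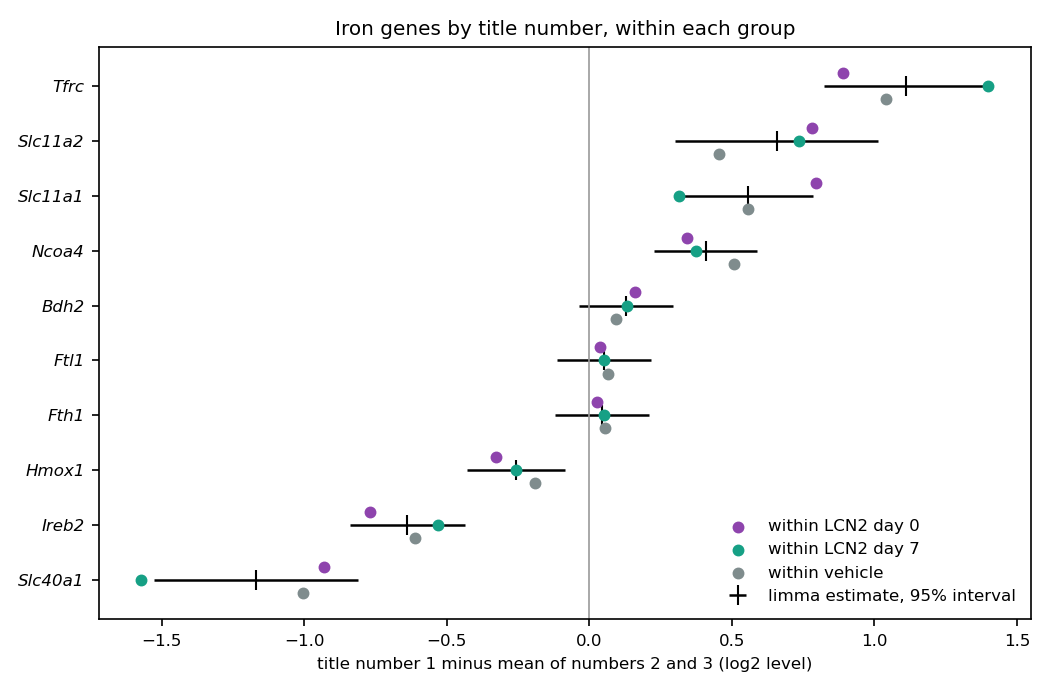
Difference in log2 level of title number 1 minus the mean of numbers 2 and 3 (horizontal axis) for each of the 10 genes (vertical axis); coloured points give the difference within each group and bars the limma estimate with its 95% interval. Tfrc (1.11) and Slc40a1 (-1.17) lie at the ends, with all 3 groups on the same side of 0. The ferritin genes, at or near the top of the measured range, lie next to 0.

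Other lists moved with the title number, and their part in these results was not tested. Over all genes tested, 11% were higher and 22.1% lower on the arrays numbered 1, and the counts below stand beside those shares. Cell cycle genes fell for 35 of 38 on number 1, and 0 rose. Their mean level was 7.63 to 8.23 on the arrays numbered 1, 8.68 to 8.95 on number 2 and 8.91 to 8.95 on number 3. Mcm5, a subunit of the replication helicase, differed by -1.13 ± 0.09 and Cdc45, its partner, by -0.99 ± 0.08. Neutrophil granule genes were lower for 6 of 9 and higher for 1, at mean levels over 12 genes of 6.08 to 6.59, 6.80 to 7.20 and 6.73 to 7.05 on numbers 1, 2 and 3, with Ngp at -1.97 and Ltf, the iron-binding protein lactoferrin, at -1.56. Monocyte markers were lower for 5 of 8 and higher for 2, at 6.92 to 7.12, 7.21 to 7.45 and 7.14 to 7.41 over 11 genes, with Ccr2, a chemokine receptor of monocytes, at -2.39 and Chil3, also an IL-4 target, at 1.51. Macrophage markers were higher for 3 of 12 and lower for 1, at 9.93 to 10.04, 9.74 to 9.85 and 9.73 to 9.78 over 13 genes. Dendritic markers were higher for 2 of 4, Itgax at 0.70 and Ccr7 at 0.33, and lower for 0. Not called were Irf4 at -0.52 and Batf3 at 0.23. Their mean level over 10 genes was 5.69 to 5.92, 5.69 to 5.84 and 5.80 to 5.85 on numbers 1, 2 and 3. Markers of megakaryocytes, mast cells and basophils were higher for 1 of 5 and stromal markers for 1 of 3, with 0 lower in each. Markers of erythroid cells, which are known for abundant Tfrc, were called for 0 of 2 genes tested, at 4.77 to 4.95, 4.70 to 4.90 and 4.68 to 4.88 over 9 genes, of which 7 were below the dim limit, Klf1 and Epor among them. The transcript of Lcn2 itself averaged 8.78 on the arrays numbered 1 and 10.55 on the others, a difference of -1.78 ± 0.17 (limma adjusted p = 0.000282).

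The rest of the iron pathway was followed in 6 lists with 75 genes, of which 70 had a probe set and 51 were tested. In the comparisons of groups 0 of the 51 passed, with median differences of -0.026 for LCN2 from day 0 against vehicle, -0.001 for LCN2 from day 7 against vehicle and -0.011 between the schedules. Of these 51, Abcg2, a heme and porphyrin exporter, at -0.30 ± 0.16 and Bola3, a factor of iron-sulfur cluster assembly, at 0.23 ± 0.13 had the smallest p with LCN2 from day 0. With LCN2 from day 7 they were Slc25a28, a mitochondrial iron importer (mitoferrin), at 0.31 ± 0.12 and Bach1, a heme-sensing repressor of Hmox1, at 0.18 ± 0.14. Between the schedules they were Slc25a28 at -0.31 ± 0.12 and Abcg2 at -0.31 ± 0.16, and the limma adjusted p of all 6 values was 0.999 or more.

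By title number 12 of these 51 genes passed (23.5%, against 33.2% of all genes), 8 higher and 4 lower on the arrays numbered 1. Heme synthesis had 3 of 6 higher and 0 lower, with Alas1, its first and rate-limiting enzyme, at 0.89 ± 0.08 (limma adjusted p = 0.000218), Urod at 0.29 and Ppox at 0.30. Of the heme handling genes 1 of 9 was higher, Blvrb, a biliverdin reductase, at 0.46, and 1 lower, Lrp1, the receptor for heme bound to hemopexin, at -0.40. Of 17 genes of mitochondrial iron and iron-sulfur clusters 1 was higher, the scaffold gene Iscu at 0.41, and 3 were lower, Nfu1 at -0.71, Glrx5 at -0.36 and Nfs1, the enzyme that supplies sulfur, at -0.33. In each of the remaining lists 1 gene was higher: Steap3, the endosomal iron reductase that serves the transferrin cycle, at 0.37, Hamp2, a near copy of the hepcidin gene whose probes may share signal with Hamp, at 0.33, and Bmpr2, a receptor of the pathway that controls hepcidin, at 0.28.

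The calls of Alas1, Blvrb and Nfu1 held over all the alternatives run for them. Those of Steap3, Lrp1 and Glrx5 were lost without vehicle replicate 1 and that of Iscu without LCN2 day 0 replicate 1. Those of Hamp2, Bmpr2, Urod and Ppox were lost without either of these 2 arrays and without vehicle replicate 2 or 3, Hamp2 also without LCN2 day 7 replicates 1 or 3 or LCN2 day 0 replicate 2, and Ppox also without LCN2 day 7 replicate 3 or LCN2 day 0 replicates 2 or 3. Hamp2, Bmpr2, Urod, Ppox and Nfs1 also lost theirs with no filter on dim probe sets, Ppox with arrays centred on their medians and Nfs1 with quantile normalization. That of Nfs1 was lost as well without LCN2 day 0 replicate 1, vehicle replicate 2 or LCN2 day 7 replicates 1 or 3.

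**Figure D4:**
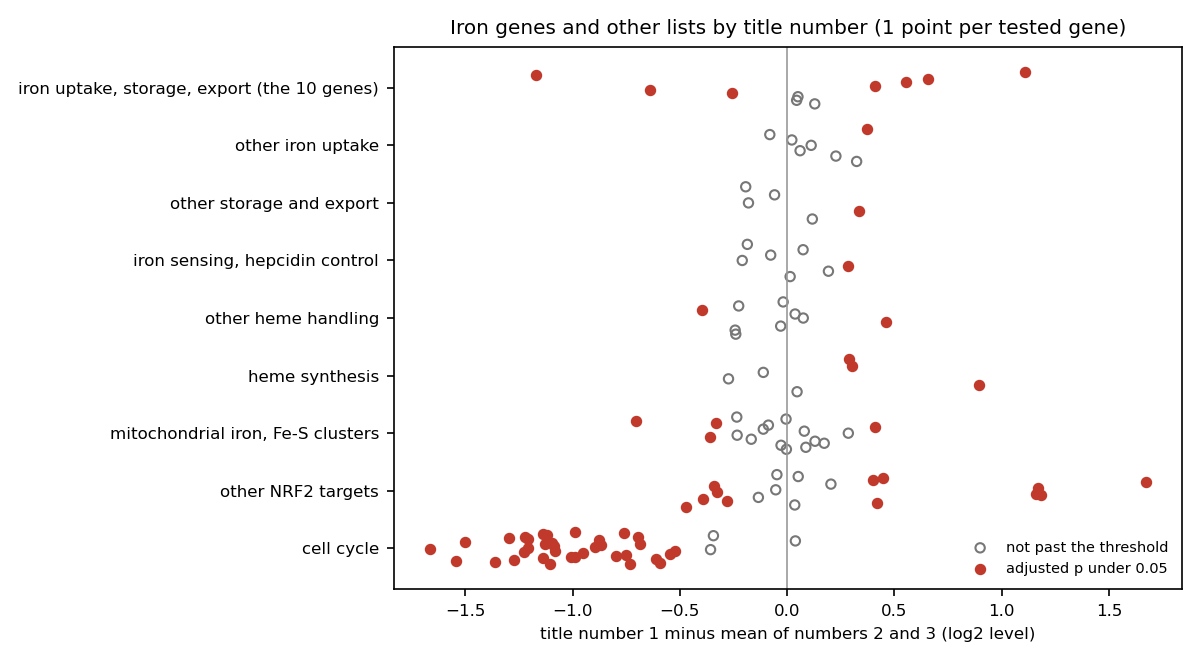
Difference in log2 level of title number 1 minus the mean of numbers 2 and 3 (horizontal axis) for every tested gene of 9 lists (vertical axis); filled points passed the limma threshold and open points did not. The 10 iron genes reach from -1.17 to 1.11 with 7 filled, and 35 of 38 cell cycle genes are filled below 0.

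Once the mean of each title number was subtracted, the genes whose remaining deviations over the 9 arrays were most like those of Slc40a1 were Zfp691, Slc25a12, Irs2, Ctc1 and Ccn5, with Pearson r of 0.99, 0.98, 0.97, 0.97 and 0.97. For Tfrc they were Adam9, Fer, Man1a, Ifitm3 and Washc5, with r of 0.99, 0.99, 0.97, 0.96 and 0.96. Before that subtraction the levels did not all run together: r was -0.61 for Ccn5 with Slc40a1, against 0.79 to 0.99 for the other 4, and -0.60 to -0.11 for the 5 genes with Tfrc. Each set holds the 5 highest r among all genes tested after the subtraction, and is a description only.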

How the data were processed

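The authors deposited log2 expression levels per probe set of an expression array. The software oligo and the method RMA are listed, per the submitters' processing notes, without versions; RMA corrects background, makes the arrays' distributions alike and summarises probes. RNA was amplified with a kit for small inputs, per the labels. The deposited log2 values were used as given. Of 22203 probe sets, 19572 carried 1 gene symbol, 0 several and 2631 none; symbols were matched by Entrez identifier to RefSeq (GRCm38.p6). For the 55 genes with several probe sets the one with the highest mean was kept, and genes under the median probe-set mean were left out.

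The fits used limma 3.58.1 (R 4.3.3) on all 9 arrays at once, with Benjamini-Hochberg adjustment over 10042 genes and a threshold of 0.05. The number of arrays limits the precision. The members, the lists and the contrast of title number 1 were chosen with earlier results of these data known, and ACGTG was added after the promoter windows were seen. All 10 members are named, as are Lcn2, the dendritic markers tested and the genes of the 6 other iron lists that passed. The cell cycle, antioxidant (NRF2), neutrophil and monocyte lists are shown by their 2 smallest p. The comparisons of groups are limited to the 2 smallest over the 6 iron lists. Genes that passed in the macrophage list, the stromal list and the list of megakaryocyte, mast cell and basophil markers are counted but not named.

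Title numbers were checked for pairing: deviations from the group means correlated between arrays of the same number at 0.16 to 0.82, over 0.1 in 9 of 9 pairs, which counted the arrays as paired by the rule used. The correlations set number 1 apart but do not show that numbers 2 and 3 pair the arrays, since arrays numbered 2 and 3 of different groups correlated at 0.20 to 0.69. Alternatives covered the block, the filter, the variance prior, array weights, scaling, probe-set choice, the groups in the fit, and arrays left out.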

Additional observations from a re-analysis of the deposited data

How the results depend on the processing

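Each comparison of groups called 0 genes and 0 of the 10 under 19 alternatives, which include the replicate block that pairs arrays by title number. That block left each difference as it was, such as 0.58 for Slc40a1 in LCN2 from day 0 minus vehicle, and called 0 genes, so it changed no call. None of the 10 differences between groups had passed, and the signs of many turned, in 16 of 189 values for LCN2 from day 0 minus vehicle, 32 of 189 for LCN2 from day 7 minus vehicle and 18 of 189 between the schedules, with limma adjusted p from 0.861 to 1.00 over these alternatives. The cause was not tested. With array weights, the turned differences were Slc11a2 at 0.00028 in LCN2 from day 0 minus vehicle, Tfrc at 0.21, Slc11a1 at 0.053, Slc11a2 at 0.018 and Ncoa4 at 0.080 in LCN2 from day 7 minus vehicle, Slc11a2 at -0.018 and Ireb2 at 0.073 in LCN2 from day 0 minus LCN2 from day 7, and Slc40a1 at 0.031 in title number 2 minus number 3. With quantile normalization, the turned differences were Fth1 at -0.0087 and Ftl1 at 0.0040 in LCN2 from day 7 minus vehicle, and Ftl1 at -0.016 in title number 1 minus the others. With arrays centred on their medians, the turned differences were Tfrc at 0.0027 and Ftl1 at 0.012 in LCN2 from day 7 minus vehicle, and Fth1 at -0.022 and Ftl1 at -0.0028 in LCN2 from day 0 minus LCN2 from day 7. Without the 3 arrays numbered 1, the turned differences were Slc11a1 at 0.041 and Ncoa4 at 0.0012 in LCN2 from day 7 minus vehicle, and Ireb2 at 0.026 in LCN2 from day 0 minus LCN2 from day 7. With 1 array left out, the differences in LCN2 from day 0 minus vehicle lay from 0.24 to 0.89 for Slc40a1, 0.10 to 0.28 for Hmox1, -0.13 to 0.52 for Tfrc, -0.0048 to 0.046 for Ftl1, -0.31 to 0.14 for Slc11a1, -0.29 to 0.22 for Slc11a2, -0.088 to 0.20 for Ncoa4, -0.34 to 0.12 for Ireb2 and -0.072 to 0.054 for Bdh2. With 1 array left out, the differences in LCN2 from day 7 minus vehicle lay from -0.15 to 0.71 for Slc40a1, -0.49 to 0.32 for Tfrc, -0.012 to 0.047 for Fth1, -0.040 to 0.0063 for Ftl1, -0.16 to 0.15 for Slc11a1, -0.33 to 0.18 for Slc11a2, -0.14 to 0.035 for Hmox1, -0.17 to 0.13 for Ncoa4 and -0.29 to 0.095 for Ireb2. With 1 array left out, the differences in LCN2 from day 0 minus LCN2 from day 7 lay from -0.13 to 0.70 for Slc40a1, 0.14 to 0.33 for Hmox1, -0.13 to 0.66 for Tfrc, -0.019 to 0.039 for Fth1, -0.28 to 0.14 for Slc11a1, -0.20 to 0.31 for Slc11a2, -0.059 to 0.19 for Ncoa4 and -0.23 to 0.20 for Ireb2. With 1 array left out, the differences in title number 2 minus number 3 lay from -0.22 to 0.18 for Slc40a1 and -0.33 to 0.11 for Slc11a2. For title number 1 minus the others, 156 of 169 values for the 10 genes kept their direction and side of the threshold, 12 lost the call and 1 turned. Leaving out 1 array gave 1777 to 3612 genes past the threshold, the lowest without vehicle replicate 1, and 5 to 7 of the 10. Of 356 values for the other named genes in that contrast, 37 lost the call and 0 turned. Bdh2 had no value under the stricter filter on dim probe sets, which it did not pass. Its low signal and the 3 arrays per group limit what small differences could be seen.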

Other observations

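Genes of the antioxidant factor NRF2 outside iron handling were called in both directions by title number: 7 of 18 were higher on the arrays numbered 1 and 5 lower, where 11% of all genes tested were higher and 22.1% lower. Gstm1, a glutathione transferase, averaged 11.56 on the arrays numbered 1 and 10.40 on the others, a difference of 1.16 ± 0.09 (SE, limma adjusted p = 0.000122). Gsta3, another one, differed by 1.18 ± 0.11 (limma adjusted p = 0.000306). In the comparisons of groups 0 of the 18 passed, with a median difference of 0.069 for LCN2 from day 0 minus vehicle and -0.006 for LCN2 from day 7 minus vehicle.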
